A study of Mus musculus with 10 samples.

Results

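AHR ChIP-seq peaks of mouse colon organoids were examined at 9 genes that encode subunits of the transcription factor AP-1, namely Fos, Fosb, Fosl1, Fosl2, Jun, Junb, Jund, Atf3 and Batf. A peak was assigned to a gene when it overlapped the gene body or the 10 kb on either side of it. This gave 24 of the 123652 peaks in the wild type list and 0 of the 1931 peaks in the AHR KO list, and each of the 9 genes had at least 1 wild type peak. By the same rule, 78.3% of protein-coding genes had a wild type peak and 4.47% an AHR KO peak. The wild type peak at Jun lay at the Jun promoter, and 9.27% of protein-coding genes had a wild type peak at theirs. The Jun window was GC-rich, and its 3 AHR core motifs lay in repeat-masked bases beside a CA repeat. The 2 peaks of Junb included the highest score at any of the 9 genes and the window with the most AHR core motifs. Atf3 held 8 peaks, above the upper quartile of protein-coding genes of its length.

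AHR, the aryl hydrocarbon receptor, is a ligand-activated transcription factor that binds DNA with its partner ARNT. ChIP-seq, chromatin immunoprecipitation with sequencing, maps the DNA that an antibody to the protein pulls down. The study used organoids, epithelial cultures grown from colon crypts, in WENR medium, which keeps the cells in a stem cell state, and compared wild type with AHR KO organoids to find AHR-bound sites. All groups received 5 nM FICZ, an AHR ligand, for 1 hour. Wild type organoids gave 4 AHR ChIP libraries and 4 input libraries, and AHR KO organoids gave 1 AHR ChIP library and 1 input library. Input libraries hold chromatin that was not immunoprecipitated. The study's methods describe the AHR-deficient organoids as derived from mice with floxed Ahr and a Cre driven by the villin promoter, which acts in intestinal epithelium. No sample without FICZ was analysed here, and peak lists carry no expression by which the tissue could be checked.

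AP-1 is a dimer of basic leucine zipper proteins. JUN proteins pair with each other or with FOS proteins, while FOS proteins need a JUN partner, and ATF3 and BATF also pair with JUN proteins. The dimers bind the words TGACTCA and TGAGTCA, and dimers that hold an ATF partner can also bind the cyclic AMP response element, TGACGTCA. Fos, Fosb, Jun, Junb and Atf3 are immediate early genes, whose transcription rises soon after growth factors, injury or stress without new protein synthesis. ERK signalling through serum response factor drives Fos, and the kinase JNK phosphorylates JUN and strengthens its activity. In the intestine, AP-1 is known for roles in stem cell proliferation and in the response to injury.

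The score of a peak is a fold enrichment, in which the height of the stacked ChIP fragments is divided by the height that the background predicts, each with 1 added. Over the whole wild type list it ran from 1.61 to 60.4, with a median of 5.32 and quartiles of 4.53 and 5.98. Derived from the spacing of the scores, the background was 2.01 fragments in the wild type list and 0.287 in the AHR KO list. These values rest on the 51.6% and 17.2% of scores, respectively, that fit the spacing. Scores were therefore not compared directly between the lists, and wild type scores are only restated at the AHR KO background below. The study's methods describe peak calling of each IP against its own input and intersection of peaks between experiments, but do not say how the single wild type list was put together from the cultures, so the fragments given here are those that the scores of the list imply. The wild type cultures share 1 list and the AHR KO has 1 ChIP library, so no value below has a replicate error, no test was run, and differences from the whole list are descriptions. As a reference, the highest-scoring peak at Cyp1a1, the classical AHR target, had a score of 18.0, with 3 AHR core motifs and 0% repeat-masked bases. No peak at an AP-1 gene reached that score.

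The sequences below are the 200 bp around the midpoint of the highest-scoring peak of each gene, with the farther upstream peak of Junb added because it holds the AHR word TNGCGTG. They show how much of each peak is simple repeat and where the motifs lie. All are from the GRCm38 reference genome (mm10), plus strand, 5′ to 3′. Capitals mark the words searched, on either strand: GCGTG, the AHR-ARNT core, and TNGCGTG, its longer form, where N is any base; TGACTCA or TGAGTCA for AP-1; TGACGTCA; and GGAATG, the word bound by TEAD factors. On the strand printed, a core on the other strand reads CACGC.
Jun upstream peak, chr4:95052667-95052866: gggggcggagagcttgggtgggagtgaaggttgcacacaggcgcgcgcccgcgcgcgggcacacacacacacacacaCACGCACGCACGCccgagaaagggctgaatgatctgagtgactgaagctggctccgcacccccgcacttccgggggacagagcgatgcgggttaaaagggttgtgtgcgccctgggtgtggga
Junb farther upstream peak, chr8:84986068-84986267: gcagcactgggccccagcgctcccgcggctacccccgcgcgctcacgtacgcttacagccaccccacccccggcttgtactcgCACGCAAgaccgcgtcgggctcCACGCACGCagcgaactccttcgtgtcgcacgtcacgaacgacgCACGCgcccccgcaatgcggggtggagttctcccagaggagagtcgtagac
Junb nearer upstream peak, chr8:84982924-84983123: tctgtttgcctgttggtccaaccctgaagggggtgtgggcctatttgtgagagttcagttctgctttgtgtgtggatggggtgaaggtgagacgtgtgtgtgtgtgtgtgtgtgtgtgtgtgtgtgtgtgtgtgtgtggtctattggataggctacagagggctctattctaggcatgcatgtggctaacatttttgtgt
Jund downstream peak, chr8:70706459-70706658: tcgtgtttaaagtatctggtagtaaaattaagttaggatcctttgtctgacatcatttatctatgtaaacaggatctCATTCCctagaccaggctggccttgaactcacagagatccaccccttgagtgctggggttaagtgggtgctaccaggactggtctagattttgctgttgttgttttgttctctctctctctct
Fos downstream peak, chr12:85478134-85478333: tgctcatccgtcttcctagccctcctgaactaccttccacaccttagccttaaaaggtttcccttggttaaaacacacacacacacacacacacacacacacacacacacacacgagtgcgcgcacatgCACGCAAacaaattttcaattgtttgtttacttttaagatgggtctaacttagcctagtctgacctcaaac
Fosb downstream peak, chr7:19299231-19299430: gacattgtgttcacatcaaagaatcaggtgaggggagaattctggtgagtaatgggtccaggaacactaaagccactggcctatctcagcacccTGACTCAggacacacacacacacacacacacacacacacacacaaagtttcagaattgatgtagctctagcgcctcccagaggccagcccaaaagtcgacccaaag
Fosl1 upstream peak, chr19:5445407-5445606: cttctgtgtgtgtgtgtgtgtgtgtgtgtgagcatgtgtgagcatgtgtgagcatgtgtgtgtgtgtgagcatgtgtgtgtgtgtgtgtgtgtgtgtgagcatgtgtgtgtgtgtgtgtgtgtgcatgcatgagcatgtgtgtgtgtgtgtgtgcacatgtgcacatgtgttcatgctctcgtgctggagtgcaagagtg
Fosl2 upstream peak, chr5:32126424-32126623: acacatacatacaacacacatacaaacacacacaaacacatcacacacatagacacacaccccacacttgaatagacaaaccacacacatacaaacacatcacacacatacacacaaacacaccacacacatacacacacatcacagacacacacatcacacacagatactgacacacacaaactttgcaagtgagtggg
Atf3 intron peak, chr1:191214832-191215031: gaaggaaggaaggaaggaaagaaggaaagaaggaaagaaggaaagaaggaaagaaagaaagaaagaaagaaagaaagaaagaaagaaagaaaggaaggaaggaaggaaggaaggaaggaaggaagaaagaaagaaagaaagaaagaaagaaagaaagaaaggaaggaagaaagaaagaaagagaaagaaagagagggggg
Batf intron peak, chr12:85692641-85692840: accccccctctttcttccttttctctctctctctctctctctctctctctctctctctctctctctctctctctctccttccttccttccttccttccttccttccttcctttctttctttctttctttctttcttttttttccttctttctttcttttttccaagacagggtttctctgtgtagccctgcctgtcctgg

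The 24 peaks scored 3.85 to 7.97, with a median of 5.13, against 5.32 over the list. Of these, 11 reached the list median and 1 was in the top 10%, which began at 7.14. By position, 8 midpoints lay upstream of their gene, 9 in an intron and 7 downstream of the gene end, with 0 in an exon or UTR of a member. Peak width ran from 180 to 470 bp with a median of 256 bp, compared with 227 bp over the list. The peaks were therefore of ordinary height and slightly wider than the typical peak of the list.

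**Figure D1:**
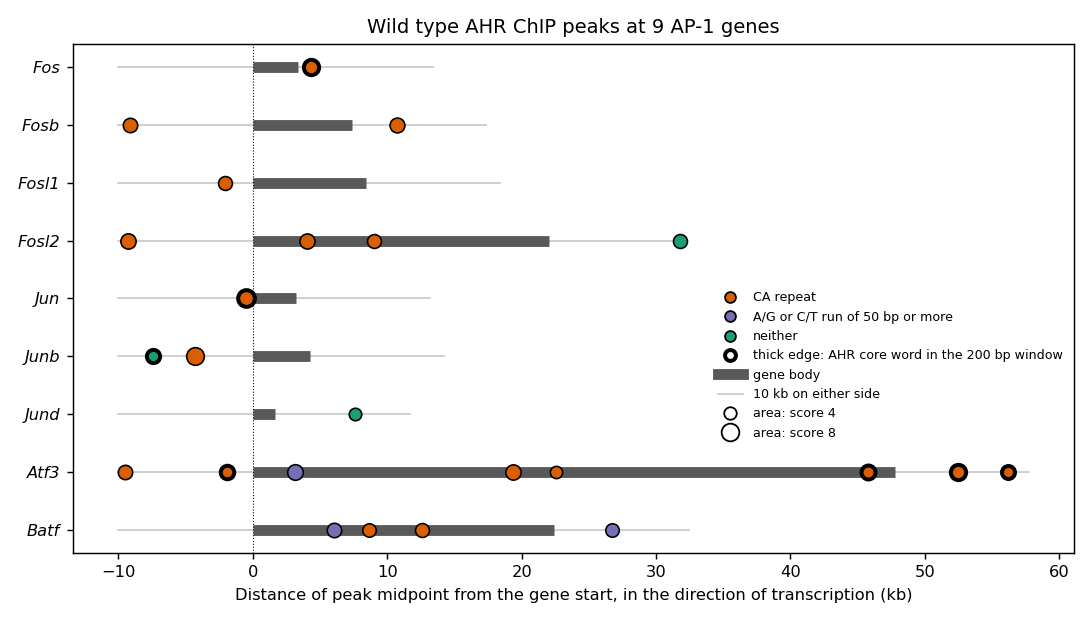
Positions of the 24 wild type peaks at the 9 genes, in kb from the gene start in the direction of transcription (x axis), with 1 gene per line. Dark bars are gene bodies, thin lines the 10 kb on either side, circle area is proportional to score, colour gives the repeat class of the 200 bp window (a CA repeat taking precedence over an A/G or C/T run) and a thick edge marks a window with GCGTG. A single peak, at Jun, lies within 1 kb upstream of the start of its own gene, and Atf3 has 8 peaks spread over its window.

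Having a peak did not set these genes apart. The share with a wild type peak was 78.3% over the 21938 protein-coding genes, and 74.1% over the 15408 whose length lay in the range of the 9 genes. The median of the best scores was 5.98 at the 9 genes, 6.31 at protein-coding genes with a peak and 5.98 at those of the same length range. Per length, the 9 genes had a median of 7.31 peaks per 100 kb of window, against 4.00 over protein-coding genes, whose quartiles were 1.73 and 6.60. Taken as one stretch of 300 kb, their windows held 7.99 peaks per 100 kb, compared with 4.66 over the genome. Protein-coding genes of the same length range had a median of 3.85 and an upper quartile of 7.02. The higher density was not shared by all 9 genes. Fos, Fosl1, Jun and Jund had 3.52 to 4.62 peaks per 100 kb, and the others 7.31 to 11.8. Of the 24 peaks, 16 belonged to Atf3, Batf and Fosl2.

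**Figure D2:**
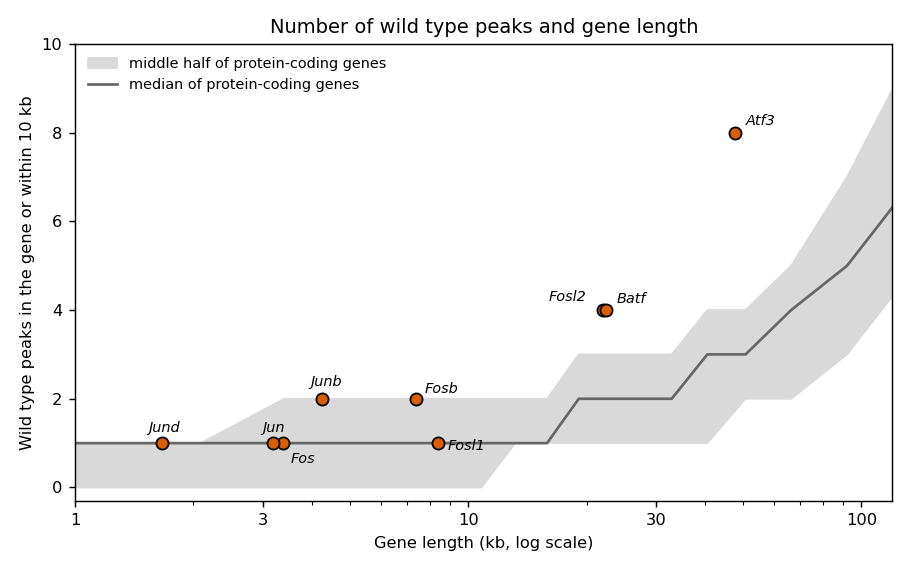
Number of wild type peaks in the 10 kb window of a gene (y axis) against gene length in kb (x axis, log scale). The line is the median and the grey band the interquartile range of protein-coding genes in 20 bins of equal size by length, and points are the 9 genes. Atf3 with 8 peaks, and Fosl2 and Batf with 4 each, lie above the band, while the other 6 genes lie within it.

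Among the JUN genes, which encode the obligate partners of the FOS proteins, only Jun had a peak at its own promoter. Its single peak (chr4:95052625-95052909) had a midpoint 545 bp upstream of the Jun start and a score of 7.13, rank 12395 of the list. This was the only 1 of the 24 peaks at the promoter of its own gene. A promoter here runs from 1 kb before to 100 bp after any annotated transcript start of the gene. Such a peak was found at 9.27% of protein-coding genes, so 1 of the 9 genes is close to the share at large. The peak also lay in an intron of Junos, annotated as an antisense gene to Jun.

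The window of the Jun peak had a GC content of 66.0%, 18 CpG dinucleotides and 20.5% repeat-masked bases. Over the list, the median window had a GC content of 46.0%, 1.00 CpG and 86.5% masked bases. The masked bases hold a CA run of 10 units, and 3 copies of GCGTG follow it in tandem, centred 21, 17 and 13 bp before the midpoint. All 3 cores are themselves lower case in the reference, so they belong to the annotated repeat. Windows with at least 3 cores made up 2.38% of the list. Jun therefore had a GC-rich promoter peak whose core motifs lay at the edge of a short CA repeat, and no TNGCGTG, AP-1, TGACGTCA or GGAATG word.

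Junb, an immediate early member that often restrains proliferation where JUN promotes it, had 2 peaks upstream. The nearer one (chr8:84982872-84983175) was centred 4306 bp before the start and scored 7.97, rank 5719 of the list. Its score corresponds to a pileup of 23 fragments, and its score was the highest among the 24 peaks. The window was 29.5% masked, held 8 copies of the CA word and a run of 22 TG units, and held none of the searched words.

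The farther Junb peak (chr8:84986068-84986268) lay 7450 bp before the start, with a score of 4.49, below the lower quartile of the list. It was the least repetitive of the 24, with 10.5% masked bases and 0 CA copies, a GC content of 69.5% and 28 CpG dinucleotides. It held 4 cores, 1 of them within TNGCGTG, centred 15 bp before and 7, 11 and 51 bp after the midpoint, and all 4 lay in unmasked bases. Windows with at least 4 cores made up 1.51% of the list. The nearest protein-coding start was that of Hook2, which encodes a microtubule linker, 4435 bp away, so assignment to Junb rests on the 10 kb rule. At Junb the higher score and the richer motif content thus fell on different peaks.

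Jund, the JUN member with the steadiest expression in most cells, had 1 peak (chr8:70706324-70706793), 5943 bp past the gene end and 7610 bp from its start. It scored 3.98, and only 11.5% of the list scored as low or lower. The window was 50.5% masked with 0 CA copies, and held 1 GGAATG and 0 AHR cores. The midpoint was in an intron of Iqcn, whose start was nearer at 3102 bp. Of the JUN genes, Jund thus had the weakest peak and the one least tied to its own start.

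**Figure D3:**
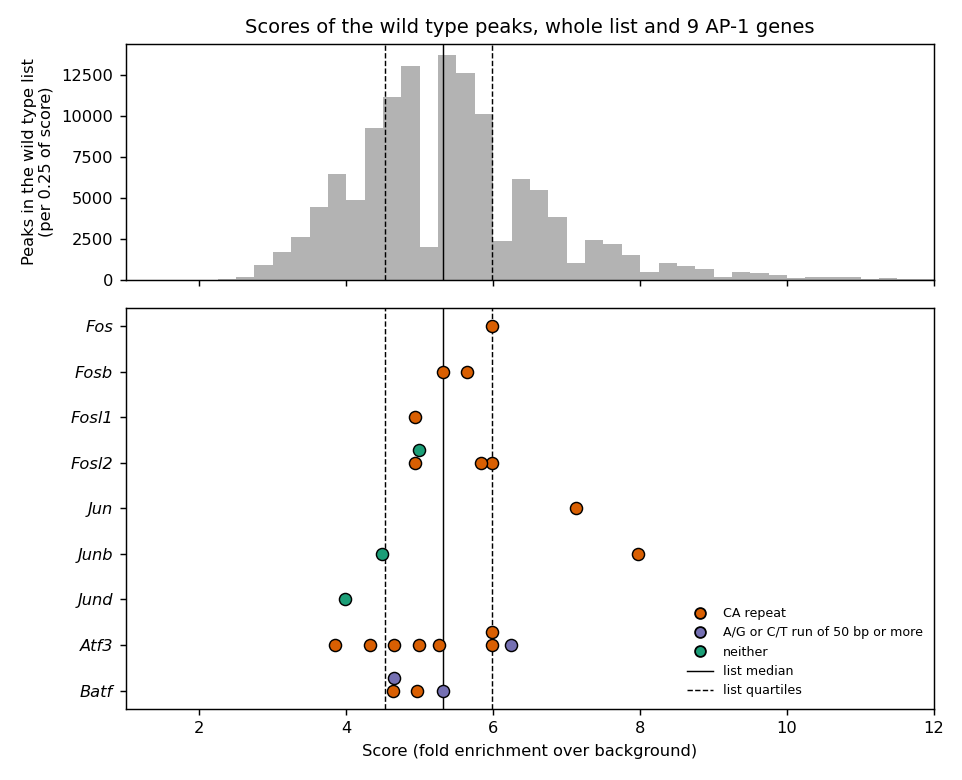
Scores (fold enrichment over background, x axis) of all wild type peaks as a histogram (upper panel, up to a score of 12) and of the 24 peaks by gene (lower panel; points with nearly equal scores are stacked). Solid and dashed lines mark the list median of 5.32 and quartiles of 4.53 and 5.98; the Jun peak at 7.13 and the nearer Junb peak at 7.97 are the only points above 7.

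Among the FOS genes, which encode the partners that JUN proteins bind most stably, Fos had a single peak (chr12:85478139-85478328). It lay 961 bp past the gene end, 4344 bp from the start, and scored 5.98 with a pileup of 17 fragments. Its window was 48.5% masked and held a run of 20 CA units, and 16 bp beyond the run it held 1 TNGCGTG in unmasked bases, 32 bp from the midpoint. The windows of the Fos peak and the farther Junb peak were the only ones of the 24 with TNGCGTG.

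Fosb, which encodes a FOS protein with a long-lived truncated form in neurons, had a peak on each side. The downstream peak (chr7:19299239-19299423) lay 3365 bp past the gene end, 10720 bp from the start, with a score of 5.65. Its window held TGACTCA, the only AP-1 word among the 24 windows, centred 3 bp before the midpoint and 3 bp from a run of 17 CA units, with 6 of its 7 bases masked. The window was 26.0% masked, held 0 AHR cores, and lay in an exon of the long noncoding gene Gm26802. The upstream peak (chr7:19319026-19319428) was centred 9176 bp before the start, scored 5.32, and was 97.0% masked with 5 CA copies and none of the words. That peak reached 22 bp into the enhancer mm567 of the VISTA set as annotated by RefSeq (chr7:19319407-19320266).

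Fosl1 encodes FRA1, a FOS protein without a transactivation domain that is often high in migrating and transformed epithelium. Its 1 peak (chr19:5445371-5445642) was centred 2040 bp before the start and scored 4.93. The window was 88.5% masked and held 18 CA copies, the most among the 24, with none of the words. The sequence is an interrupted TG repeat almost throughout.

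Fosl2, which encodes the related FRA2, had 4 peaks. The upstream peak (chr5:32126386-32126662) lay 9277 bp before the start, scored 5.98, and was 79.0% masked with 12 CA copies. An intron peak (chr5:32139721-32139911) lay 4015 bp past the start, scored 5.84, and was 26.0% masked with 5 CA copies and 1 GGAATG. A second intron peak (chr5:32144697-32144876) lay 8986 bp past the start, and at -1734 bp (upstream) from the nearest annotated transcript start. It scored 4.93, and was 33.5% masked with 8 CA copies and a run of 25 units. The last peak (chr5:32167338-32167786) lay 9720 bp past the gene end, 31761 bp from the start, scored 4.98, and was 100% masked with 0 CA copies. None of the 4 windows held GCGTG, while over its whole width the last peak held 1 core and 1 GGAATG.

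Atf3 encodes a stress-induced factor that represses or activates depending on its partner, and it held the most peaks and the highest density, 11.8 per 100 kb. For its length of 47744 bp, the median protein-coding gene had 3.00 peaks and the upper quartile was 4.00, over 1098 genes of 45110 to 58116 bp. Distances to the start depend on the transcript, since the 2 protein-coding transcripts start 34699 bp apart. From the upstream start, the peaks lay from 9492 bp before to 56198 bp after it, and from the downstream start, from 44191 bp before to 21499 bp after it. No peak lay within 10 kb of the downstream start, the one that the RefSeq promoter table uses.

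In order from the upstream side, the first Atf3 peak (chr1:191227430-191227631) lay 9492 bp before the upstream start, scored 5.27, and was 85.0% masked with 10 CA copies. The next (chr1:191219813-191220088) lay 1912 bp before it, scored 4.65, and was 77.5% masked with 11 CA copies and 1 GCGTG. Both upstream peaks were CA repeats that scored below the list median.

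Within the gene, 4 peaks lay in introns. The highest-scoring (chr1:191214761-191215102) lay 3107 bp past the upstream start, with a score of 6.25. It was 100% masked with 0 CA copies, and all 200 bp of the window formed an unbroken run of A and G on the strand printed. The next (chr1:191198621-191198817), at 19320 bp, scored 5.98 and was 75% masked with 5 CA copies and an A/G or C/T run of 55 bp. The lowest score of all 24, 3.85, was at 22523 bp (chr1:191195424-191195608), where the window was 56.5% masked with 6 CA copies and 1 GGAATG. The last intron peak (chr1:191172159-191172348), at 45785 bp, scored 4.98 and was 49.0% masked with 5 CA copies and 1 GCGTG at the end of the CA run. The intron windows thus held 1 core among them, and it was in masked bases.

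The remaining Atf3 peaks were downstream. One (chr1:191165411-191165710) was 4735 bp past the gene end and 52478 bp from the upstream start, scored 5.98, and was 98.5% masked with 16 CA copies and 1 GCGTG. The other (chr1:191161721-191161960) was 8455 bp past the end and 56198 bp from that start, scored 4.32, and was 96.0% masked with 5 CA copies and 1 GCGTG. Both, and the intron peak at 45785 bp, were nearest to the start of Fam71a among protein-coding genes, at 744, 2976 and 7437 bp. All 4 cores at Atf3 were in masked bases.

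Batf encodes a factor without a transactivation domain, known mainly from lymphocytes, that pairs with JUN proteins. It had 3 intron peaks and 1 downstream peak. The highest-scoring (chr12:85692650-85692832) lay 6072 bp past the start, scored 5.32, and was 99.5% masked with 0 CA copies and a C/T run of 162 bp. Next (chr12:85695195-85695480), at 8669 bp, came a peak with a score of 4.64, 100% masked with 7 CA copies. The third intron peak (chr12:85699177-85699356), at 12598 bp, scored 4.96 and was 92.0% masked with 8 CA copies.

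The downstream Batf peak (chr12:85713243-85713595) lay 4332 bp past the gene end, 26750 bp from the start, scored 4.65, and was 100% masked with an A/G or C/T run over all 200 bp. None of the 4 windows held any of the searched words, although over its whole width the peak at 8669 bp held 1 TNGCGTG. Each window was at least 92.0% masked.

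Over the 24 windows, a CA repeat, meaning CACACA or TGTGTG in 3 or more separate copies, was found in 18 (75%), against 57.3% of the list. At least 50% of bases were repeat-masked in 16 (66.7%), against 86.0%, and under 25% were masked in 2 (8.33%), at Jun and Junb, against 0.454%. An A/G or C/T run of at least 50 bp was found in 4 (16.7%), at Atf3 and Batf, against 17.4%. Only the farther Junb peak was neither a CA repeat nor at least 50% masked, which held for 1.21% of the list. The peaks at AP-1 genes thus lay mostly in CA repeats or masked sequence, as did all but 1.21% of the list. How reads that map to several repeat copies were counted is not given in the sources used here, and its part in these scores was not tested.

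**Figure D4:**
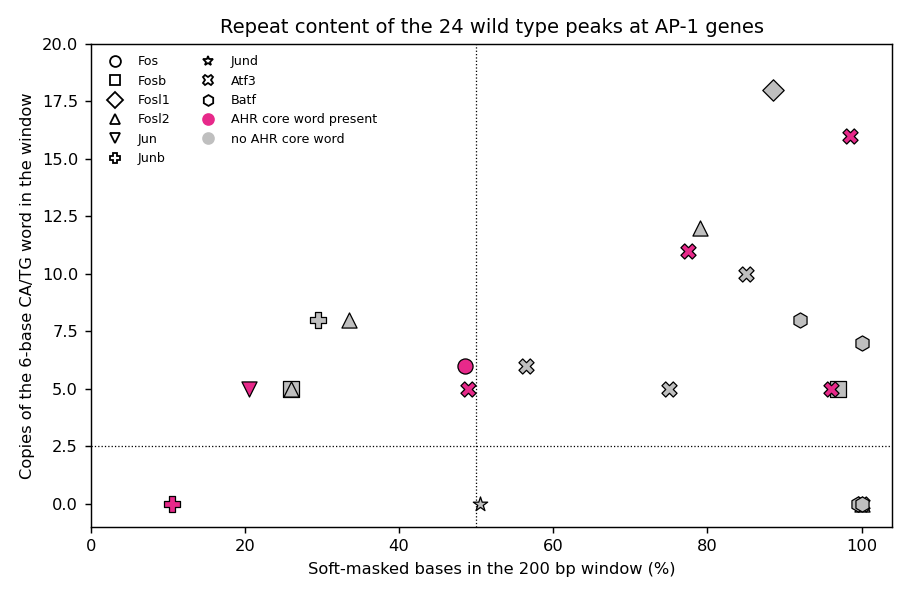
Copies of CACACA or TGTGTG (y axis) against the share of repeat-masked bases (x axis, %) in the 200 bp window of each of the 24 peaks, with a marker shape per gene. Pink points hold GCGTG and grey points do not, and dotted lines mark 50% masked and the minimum of 3 copies; 4 points with 0 copies, at Fosl2, Atf3 and Batf, coincide at 99.5% to 100% masked. The farther Junb peak lies alone at the lower left with 10.5% masked and 0 copies.

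The AHR core GCGTG was in 7 of the 24 windows (29.2%), at Fos, Jun, Junb and Atf3, against 17.7% of the list. Of these, 6 were CA repeats, and among all windows with a CA repeat 21.2% held the core. In all, 12 cores were counted, 7 of them in masked bases, whereas 91.5% of the 38500 cores of the list were in masked bases. A core in unmasked bases was held by 2 windows (8.33%), Fos and the farther Junb peak, compared with 1.67% of the list. The same windows were the 2 with TNGCGTG, which the list held in 2.84%. Searched over their whole width, 9 of the 24 peaks held GCGTG and 3 held TNGCGTG, against 21.3% and 3.85% of the list.

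The AP-1 word was in 1 window (4.17%), at Fosb, against 1.28% of the list. TGACGTCA was in 0 windows, and in 0.0276% of the list. GGAATG was in 3 windows (12.5%), at Fosl2, Jund and Atf3, against 7.24%. The counts at the AP-1 genes are small, and 1 window more or less changes a share by 4.17 percentage points.

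At the promoters themselves, from 250 bp before to 50 bp after the start, 8 of the 9 genes were matched in RefSeq (GRCm38), and no wild type peak overlapped any of these promoters, as was the case for all but 1.15% of the 16522 protein-coding genes in that set. GCGTG occurred at Fos and Fosb, with 1 copy each, and at Junb and Atf3, with 2 copies each, while 42.6% of the set held it. The other words were in none of the 8, and were held by 7.03% (TNGCGTG), 5.40% (TGACTCA or TGAGTCA), 2.64% (TGACGTCA) and 15.2% (GGAATG) of that set.

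No AHR KO peak lay at any of the 9 genes, where 4.47% of protein-coding genes had one. Nor did any of the 24 peaks overlap a peak of the AHR KO, as against 1.51% of the list. The nearest AHR KO peak to any start was 146 kb from Fosl1, and the next nearest were 483 kb from Junb and 755 kb from Atf3. The AHR KO list had the lower background, and the 333 of its peaks on whole pileups (17.2%) started at 5 fragments; the limit for the other peaks of that list is not known. At the AHR KO background, the scores of the 24 peaks would correspond to a pileup of 3.96 to 9.26 fragments, with 17 of them at or above 5. The Jun and nearer Junb peaks would be at 8.17 and 9.26 fragments, whereas 7 of the 24 would fall below 5. The part of depth in the absence of AHR KO peaks at these genes was not tested.

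In the wild type list, 12 of the 24 peaks had scores on whole pileups over the genome-wide background, against 51.6% of all peaks. The pileups of these 12 ran from 12 to 23 fragments with a median of 15.5, and the median over the on-step peaks of the list was 16. The scores of the remaining 12 were off that step, so no whole pileup is given for them. The 12 peaks with a whole pileup were thus close to that median.

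Genes around AP-1 were counted on 4 lists. Of 12 related basic leucine zipper genes, whose proteins pair with AP-1 subunits or resemble them, 11 (91.7%) had a wild type peak. The highest scores among them were 9.64 at Maff, a small MAF repressor, and 7.97 at Maf. Of 14 kinases and transcription factors upstream of AP-1, 11 (78.6%) had a peak, led by Elk3 at 8.34 and Creb1 at 7.89. The kinase gene Mapk10, which encodes JNK3, was the only 1 of the 47 genes with an AHR KO peak, where 4.47% of protein-coding genes had one. At 303387 bp it was also the longest of the 47, with 17 wild type peaks.

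Of 12 other immediate early genes, 8 (66.7%) had a peak, led by Zfp36, which encodes an mRNA decay factor, at 11.9 and the antiproliferative gene Btg2 at 9.74. Of 9 known AP-1 target genes, 7 (77.8%) had one, led by the matrix metalloproteinase genes Mmp9 at 9.64 and Mmp3 at 8.97. Over the 4 lists, 37 of 47 genes (78.7%) had a peak, beside 78.3% of protein-coding genes. Their median best score was 6.98, beside 6.31 at protein-coding genes with a peak and 5.98 at the AP-1 genes. Taken as 1 group, the genes around AP-1 thus had peaks about as often as protein-coding genes at large.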

How the data were processed

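ChIP-seq was carried out on 4 wild type cultures (4 AHR ChIP and 4 input libraries) and on AHR KO organoids (1 and 1). According to the study's methods and the submitters' processing notes, reads were aligned to mm10 with BWA 0.7.15, duplicates were marked with Picard 2.1.1, peaks were called against input with MACS2 2.1.1 and annotated with HOMER 4.8. Peaks were deposited as 1 list per genotype. The deposited score was read from its values as a fold enrichment, a ratio of pileup plus 1 to background plus 1. Of the wild type scores, 51.6% lay on whole multiples of a step of 0.332, and of the AHR KO scores 17.2% on a step of 0.777. Background was derived from the step, and pileup only for scores on it. The handling of multi-mapping reads is not given in the sources used here, and library read depth was not analysed.

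Starts were taken as counted from 0, so printed starts have 1 added. Genes and distances came from GENCODE M21, with distance measured from the gene start to the peak midpoint. Words were counted on both strands in 200 bp around the midpoint of peaks on the main chromosomes (123366 windows). Lower-case bases of the reference mark repeats. Overlap was counted from 1 bp with Python 3.11.15 and numpy 2.4.6, and bedtools 2.31.1 gave the same count for each gene. The code was tested on simulated data. No test was run, because the cultures share 1 list and the AHR KO has 1 ChIP library.

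The 9 genes, the 4 lists around them and the words were chosen with earlier results of these data known. The text names each of the 9 genes with every peak, the 2 genes with the highest best score on each list, any listed gene with an AHR KO peak, and genes whose start is nearest to a peak. The minimum of 50 bp for A/G or C/T runs was chosen after the peaks had been seen.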

Additional observations from a re-analysis of the deposited data

How the results depend on the processing

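Alternatives concerned the flank, score, window and start. Of 31 values, 17 stayed within the limit set and 14 moved, where the limit was 1.5 times the reported value for counts and no change after rounding for medians. The 24 wild type peaks became 13 with a 2 kb flank, 85 with 50 kb, 11 at or above the median score, 1 in the top 10% of scores and 8 with windows under 50% masked. With 2 kb, 6 of the 9 genes had a peak, against 57.4% of protein-coding genes, and with 50 kb all 9, against 97.6%. At or above the median score, 7 of the 9 had one, against 60.4%. In the top 10% of scores, genes with a peak went from 9 to 1, where 23.0% of protein-coding genes had one, and genes of the related lists from 37 to 16. The median best score of 5.98 became 5.91 with 2 kb, 6.98 with 50 kb and 5.91 with windows under 50% masked. In 500 bp around the midpoint, windows with GCGTG went from 7 to 12 of 24 (28.2% of the list), with TNGCGTG from 2 to 4 (5.71%) and with an AP-1 word from 1 to 2 (5.39%). The median signed distance to the start, 6841 bp, became 3215 bp from the nearest transcript start. AHR KO peaks stayed at 0 with flanks of 2 and 50 kb and by midpoint. No paired analysis was possible because the wild type cultures are in 1 list and the AHR KO has 1 ChIP library, and for the same reason no culture could be left out. Among scores on the step, 1 step is 1 fragment.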
